A study of Mus musculus with 4 samples.

Results

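Trim genes encode tripartite motif proteins, a family made mostly of RING ubiquitin ligases. In mouse fetal liver erythroid progenitors, 37 of the 35927 gene rows with counts were taken as members. A row was a member if its symbol was Trim followed by a number, with or without a letter, and if its counts summed to at least 20 over the 4 libraries. Of 67 rows with such a symbol, 29 had too few counts, and Trim2 was left out by the rule. The progenitors were sorted from C57BL/6 fetal livers at E13.5 for surface CD71, which takes up transferrin-bound iron, and for lack of TER119, which later erythroid cells carry. The control group joined Rcor1+/+ and Rcor1+/- embryos in proportions not given in the sources used here, and the mutant group was Rcor1-/-. Rcor1 encodes the CoREST scaffold protein, which joins the histone demethylase Kdm1a to histone deacetylases. Each group had 2 libraries made by mRNA sequencing, and each library pooled RNA of several fetal livers, so p-values measure the spread between pools, which may be partly technical. An exact permutation test of 2 libraries against 2 cannot go below p = 0.33.

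A typical Trim protein carries a RING finger that recruits a ubiquitin conjugating enzyme, 1 or more B-box zinc fingers, and a coiled coil through which it dimerises. The part after the coiled coil chooses the target, and it divides the family into classes. In red cell precursors the family is known for Trim10 and Trim58, which appear during erythroid maturation, and for the nuclear cofactors Trim28, Trim24 and Trim33. Many members with a PRY-SPRY domain take part in antiviral defence and are induced by interferon.

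Libraries held 15053229 to 26892375 counts. Rcor1 transcripts were counted 4083 and 3807 times in controls, against 2061 and 1240 times in mutants. Its level was 167 ± 10.5 CPM and 78.4 ± 0.723 CPM (SD, n = 2), so 46.9% of the control level of reads remained in the mutants. The counts are for the whole gene and do not single out a deleted part, so they check the labels only in part. The 8 erythroid markers took 0.573% and 0.586% of control counts, against 0.41% and 0.395% of mutant counts. Markers of other cell types were scarcer, from hepatoblast genes (10 markers, 0.09% to 0.091% in controls and 0.135% in mutants) down to lymphoid genes (6 markers, at most 0.000159% in any library), and no marker was at 0 in all libraries. In bulk RNA, fewer cells of a type and less RNA per cell cannot be told apart. Levels below are CPM, counts scaled to a common library size with TMM factors, with the SD over n = 2 libraries. Changes are log2 fold changes of mutant over control with their standard error from edgeR's quasi-likelihood test, and a gene was said to rise or fall if its Benjamini-Hochberg adjusted p over all genes tested was under 0.05.

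The Trim genes split between both directions in the mutant progenitors. Of 36 members that passed the filter on low counts, 14 rose, 8 fell and 14 did not pass the test. Over all 13140 genes tested, 57.5% were called, 28.3% higher and 29.2% lower, so the 61.1% of members called lay near the background. At least 2-fold rises were found in 9 members, and 11.7% of all genes rose as much. Trim10 was the only member to fall at least 2-fold, against 1.8% of all genes. Trim2, which the rule left out, fell further (-2.48 ± 0.14). The median change was 0.07 over the members and 0.01 over all genes. Without TMM factors, by library totals alone, the median of all genes was 0.15, and the split became 17 members higher and 5 lower, and 5112 genes higher and 2553 lower over the table. The groups did not overlap in 30 of the 36 tested members, and in 77.9% of all genes. A scarce gene could pass the filter through the group where it was high, so counts over the tested members are a description only.

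**Figure D1:**
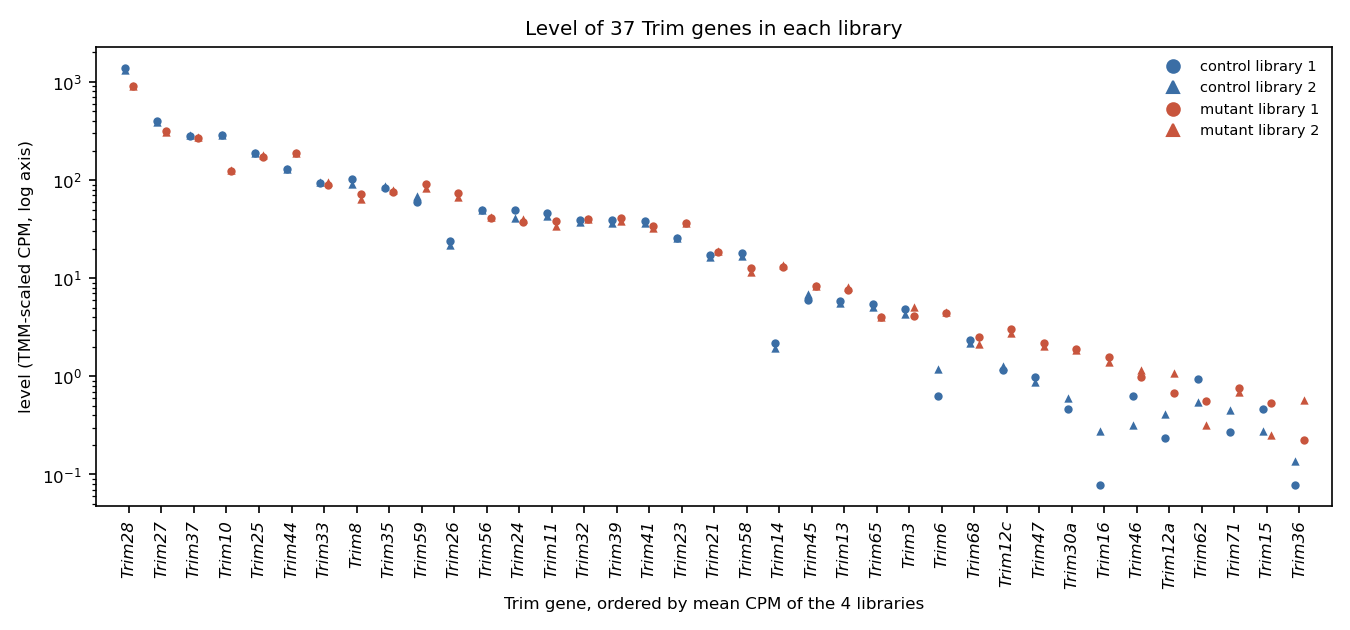
Level of the 37 Trim genes (x axis, ordered by the mean of the 4 libraries) as TMM-scaled CPM on a log axis, with 1 point per library (circles, libraries 1; triangles, libraries 2; blue, control; red, mutant). Control points lie above mutant points for Trim28 and Trim10, and below them for Trim26, Trim14, Trim6 and Trim16.

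Levels covered several orders of magnitude. Trim28 was the most abundant member, with 1392 and 1323 CPM in the control libraries, and Trim36 was the scarcest, with 20 counts in all. Trim28, Trim27, Trim37 and Trim10 together took 69.4% and 69.2% of the members' counts in controls and 59.3% and 59% in mutants. The members as a whole took 0.323% (0.321 to 0.325, a Wilson interval at 95%) and 0.316% (0.314 to 0.318) of control counts. In the mutant libraries they took 0.289% (0.286 to 0.291) and 0.284% (0.281 to 0.287). These intervals cover counting error only. Trim28 accounted for 41% and 40% of the members' counts in controls and 33.4% and 33.1% in mutants.

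Direction and level went together in a way that the whole table also showed. Among the 20 tested members with a mean of 10 CPM or more over the 4 libraries, 4 rose and 8 fell, with a median of -0.12. Of all genes at that level, 23.8% rose and 41.2% fell, with a median of -0.09. Among the 16 tested members below 10 CPM, 10 rose, 6 did not pass and no member fell, and the median was 1.06. Of all genes below 10 CPM, 36.3% rose and 8.21% fell, with a median of 0.33. Markers of several other cell types were also higher in the mutant libraries. Megakaryocyte markers took 0.0109% and 0.0105% of control counts against 0.024% and 0.0235% of mutant counts, with 5 of 7 higher and 1 lower. Endothelial markers took at most 0.00118% in controls and at least 0.00314% in mutants (4 of 7 higher), and mesenchymal markers at most 0.000669% and at least 0.00228% (6 of 7 higher). Hepatoblast markers were higher in 6 of 10. Their part in the rises of scarce Trim genes was not tested.

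**Figure D2:**
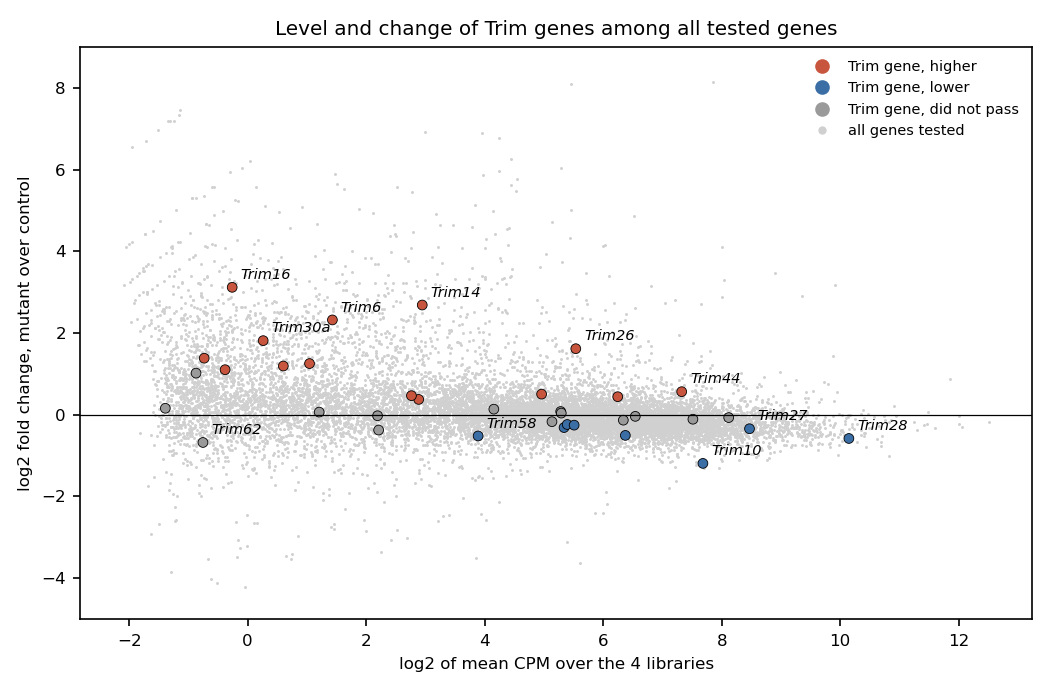
Log2 fold change of mutant over control (y axis) against log2 of the mean CPM over the 4 libraries (x axis) for all 13140 genes tested (small grey points) and the 36 tested Trim genes (large points; red, higher; blue, lower; grey, did not pass). The rising Trim genes with large changes sit at low levels, and the abundant Trim28, Trim27 and Trim10 sit below 0.

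Trim10 and Trim58, the erythroid members, both fell. Trim10 (ENSMUSG00000073400), known as HERF1 and linked to terminal erythroid differentiation, had 287 and 285 CPM in the control libraries and 123 and 127 CPM in the mutant libraries. The mutant libraries were both far below the controls, a change of -1.19 ± 0.05 (adjusted p = 1.25e-12), which was the steepest fall among the members. Trim58 (ENSMUSG00000037124), a ligase of late erythroblasts that binds the motor protein dynein and leads to its degradation, had 18 and 17 CPM in controls and 12.8 and 11.5 CPM in mutants. Its groups did not overlap, and its change was -0.52 ± 0.10 (adjusted p = 0.000349). Both genes kept the call and the direction under all 12 alternative settings, with values from -1.23 to -1.05 for Trim10 and from -0.60 to -0.38 for Trim58. The difference between the 2 falls was not tested, and their 95% intervals, -1.29 to -1.09 and -0.73 to -0.30, did not overlap. Per kilobase of annotated exon, Trim10 stood at 127 CPM and Trim58 at 7.98 CPM in controls, the second and the fourteenth level among the members.

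The 250 bases before the annotated starts of both genes are shown because these members are the erythroid ones. The sequences are those of RefSeq on GRCm38.p6, 5′ to 3′ on the strand of the gene. Capitals mark AGATAA or its reverse complement TTATCT, a form of the letters bound by GATA factors.
Trim10 (chr17:36869324-36869573, plus strand): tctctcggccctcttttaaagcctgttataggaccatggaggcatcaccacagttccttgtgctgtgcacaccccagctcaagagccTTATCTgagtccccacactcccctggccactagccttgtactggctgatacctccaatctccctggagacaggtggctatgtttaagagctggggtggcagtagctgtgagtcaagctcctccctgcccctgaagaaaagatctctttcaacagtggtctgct
Trim58 (chr11:58640215-58640464, plus strand): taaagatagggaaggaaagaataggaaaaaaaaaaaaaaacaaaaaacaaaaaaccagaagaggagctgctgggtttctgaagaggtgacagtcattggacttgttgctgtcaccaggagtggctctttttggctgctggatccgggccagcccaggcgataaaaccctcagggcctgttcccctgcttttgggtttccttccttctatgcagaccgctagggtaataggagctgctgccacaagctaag
The Trim10 window held TTATCT from 163 to 158 bases before the start, and the Trim58 window held neither AGATAA nor TTATCT. Only these exact letters were searched. The Trim58 window does hold AGATAG, a related form, so the windows are not shown to differ in GATA letters. Over all 32851 RefSeq windows of this length, 9.99% held the motif on either strand. Among the 36 windows of the 28 members with an entry, that of Trim10 alone did. A match is a description of the letters and not of binding.

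The fall of Trim10 and Trim58 stood beside falls of most late erythroid genes. Of 24 such genes in a list, 18 fell and 5 rose, with a median of -0.43. Of all genes at 10 CPM or more, where these genes lay, 41.2% fell and 23.8% rose, with a median of -0.09. The steepest falls were those of Gypc (-1.54 ± 0.13), which encodes a membrane sialoglycoprotein, Tmcc2 (-1.13 ± 0.06) and Rhd (-1.10 ± 0.04), a blood group gene. The risers were Xpo7 (1.43), Bpgm (0.98), Bnip3l (0.70), Spna1 (0.33) and the ubiquitin conjugating enzyme gene Ube2o (0.30). All 8 markers of erythroid identity, among them Gata1, Klf1 and Tfrc, fell. Their part in the falls of Trim10 and Trim58 was not tested. Of 17 tested genes for subunits of dynein, the target of Trim58, and of its cofactor dynactin, 7 fell, 10 did not pass and no gene rose. Their median was -0.11. These subunits also lay at 10 CPM or more, and their share of falls was near that of all genes at that level. With library totals alone 5 fell and 5 rose, and the median was 0.03. The steepest falls were Actr1b (-0.49 ± 0.05), Actr1a (-0.43 ± 0.05) and Dctn2 (-0.43 ± 0.04), all of dynactin. Dync1h1, the dynein heavy chain, went from 387 ± 18.6 to 321 ± 17.2 CPM (-0.27 ± 0.05, adjusted p = 0.00016).

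The PHD-bromodomain class holds nuclear cofactors rather than cytosolic ligases. Trim28 (ENSMUSG00000005566), also called KAP1, is the corepressor of KRAB zinc finger proteins. It had 1392 and 1323 CPM in controls and 917 and 899.5 CPM in mutants, and fell (-0.58 ± 0.04, adjusted p = 3.46e-09). Trim24, a coregulator of nuclear receptors that also targets p53, had 49.3 and 41.5 CPM in controls and 37.5 and 39.7 CPM in mutants (-0.24 ± 0.09, adjusted p = 0.0279). The Trim24 call was lost in 6 of 12 alternatives: without control replicate 1 (adjusted p = 0.332), without mutant replicate 1 (0.176), without mutant replicate 2 (0.0514), with upper quartile scaling (0.126), with library totals alone (0.326) and with DESeq2 (0.0724). Trim33, or TIF1-gamma, is needed for red cell formation in zebrafish and binds Smad proteins. It had 93.2 and 95.5 CPM in controls and 88.2 and 95.8 CPM in mutants, with overlapping groups. Its change was -0.04 ± 0.06 (adjusted p = 0.587), with a 95% interval from -0.16 to 0.08, and it was 0.10 with library totals alone. Trim66, the remaining gene of the class, had 4 and 0 counts in controls against 3 and 1 in mutants and lay below the count limit.

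Genes for partners of these cofactors moved in both directions. Of 13, 4 rose, 5 fell and 4 did not pass, with a median of 0.04 that ranged from -0.07 to 0.18 over the alternatives. Over all genes tested, 28.3% rose and 29.2% fell, so the split of the partners is a description only. Chd3, a remodelling ATPase bound by Trim28, went from 39.2 ± 0.0702 to 149 ± 2.71 CPM (1.92 ± 0.06, adjusted p = 3.8e-14), while its paralog Chd4 fell (-0.32 ± 0.04). With library totals alone and without mutant replicate 2, 3 fell in place of 5. Atf7ip, the cofactor of the histone methyltransferase Setdb1, fell by 0.33. Setdb1 itself, which Trim28 recruits, fell by 0.13 (adjusted p = 0.0274), a call lost in 7 of 12 alternatives. Among these were leaving out control replicate 1 (adjusted p = 0.0627), mutant replicate 1 (0.129) or mutant replicate 2 (0.114), and library totals alone, where the value was 0.01. The list held 3 genes of the HUSH silencing complex. Mphosph8 (0.43) and D14Abb1e (0.45), the latter also called Tasor, rose, and Pphln1 did not pass (0.11). Among the Smad genes, Smad3 fell (-0.34), Smad4 rose (0.21, adjusted p = 0.0263) and Smad2 had -0.04. The Smad4 call was lost with each library left out in turn (adjusted p from 0.0661 to 0.113), with DESeq2 (0.113) and with no filter beyond 1 count (0.0992).

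Among the 19 members of the PRY-SPRY class (C-IV), 6 rose, 4 fell and 9 did not pass, with a median of 0.06. Over all genes tested, 57.5% were called, 28.3% higher and 29.2% lower, so the share of the class that was called lay near the background. Members placed in other classes are not in this count, even where they also carry such a domain. Trim27, a ligase that acts on endosomal actin regulation, had 401 and 392 CPM in controls and 318 and 307 CPM in mutants, and fell (-0.34 ± 0.04, adjusted p = 4.04e-06). Its mutant libraries were both below the controls. Trim11 fell from 45 ± 2.5 to 36.1 ± 3.3 CPM (-0.31 ± 0.08), a call lost without mutant replicate 2 (adjusted p = 0.0678) and with library totals alone (0.0793). Trim25, the ligase that activates the RNA sensor RIG-I, had 191 and 188 CPM in controls and 171 and 181 CPM in mutants. Its groups did not overlap, but it did not pass (-0.11 ± 0.05, adjusted p = 0.0617) and passed without control replicate 2 (adjusted p = 0.0468). Trim35, first found as a gene tied to a switch of erythroid cells to myeloid ones, was at 82.6 and 86.8 CPM in controls and 75.7 and 79 CPM in mutants (-0.13 ± 0.06, adjusted p = 0.0646). Trim21, a cytosolic antibody receptor, was at 17.3 and 16.6 CPM in controls and 18.6 and 18.8 CPM in mutants (0.14 ± 0.09, adjusted p = 0.213), and Trim39 was at 37.9 ± 2.22 and 40 ± 2.16 CPM in controls and mutants. With library totals alone, Trim21 and Trim39 passed as higher (adjusted p = 0.0161 and 0.0281).

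Among the remaining genes of the PRY-SPRY class outside the gene clusters, Trim41 had 38.2 and 36.3 CPM in controls and 33.7 and 32.5 CPM in mutants (-0.17 ± 0.08). In the GENCODE M21 annotation 31 exon bases of Trim41 are shared with Gnb2l1 on the opposite strand, which had 155659 and 137380 counts in controls. Since no source used here states whether counting used strand, reads from that stretch cannot be assigned to either gene with certainty. Trim65, a ligase of the sensor Ifih1, was at 5.22 ± 0.249 CPM in controls and 4.04 ± 0.0473 CPM in mutants (-0.37 ± 0.16, adjusted p = 0.0543). Its neighbour Trim47, with which it shares 225 exon bases, had 25 and 19 counts in controls against 58 and 32 in mutants, and rose (1.19 ± 0.27, adjusted p = 0.00105). Trim68 had 0.06 ± 0.22, with overlapping groups. Trim62 had 24 and 12 counts in controls against 15 and 5 in mutants, and Trim15 had 12 and 6 against 14 and 4, so their intervals were wide (-1.60 to 0.24 and -0.93 to 1.25).

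Trim26, which restrains interferon beta induction, had the largest rise among the members at 10 CPM or more. It had 24 and 21.6 CPM in controls and 73.5 and 66.7 CPM in mutants, a 3.07-fold higher mean (1.62 ± 0.08, adjusted p = 4.24e-11). Both mutant libraries lay well above both controls. Trim26 and Trim10 are neighbours on chromosome 17, with Trim15 between them and no other protein-coding gene. Along this stretch Trim26 rose, Trim15 was scarce and Trim10 fell. Trim40 and Trim31, which follow, had 4 counts and 0 counts over the 4 libraries.

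A second run of Trim genes lies on chromosome 7 and holds Trim6, Trim34a, Trim5, Trim12a, Trim34b, Trim12c, Trim30b, Trim30c, Trim30a and Trim30d in that order, with no other protein-coding gene starting between them. The 4 members in this run rose. All 4 lay below 10 CPM, where 36.3% of all genes rose and 8.21% fell, and most of their counts came from the mutant libraries, so the count is a description. Trim6 had 16 and 26 counts in controls against 116 and 72 in mutants, or 0.626 and 1.19 CPM against 4.38 and 4.58 CPM (2.32 ± 0.26, adjusted p = 6.61e-07). Leaving out control replicate 1 gave 1.89, and leaving out control replicate 2 gave 2.81. Trim30a, which dampens NF-kappaB signalling, had 12 and 13 counts in controls against 50 and 29 in mutants (1.81 ± 0.31, adjusted p = 9.88e-05). Trim12c had 30 and 28 counts against 81 and 43 (1.25 ± 0.24, adjusted p = 0.000216). Trim12a, like Trim12c a mouse relative of the retroviral restriction factor Trim5, had 6 and 9 against 18 and 17 (1.38 ± 0.46, adjusted p = 0.0158). The Trim12a call was lost without control replicate 1 (adjusted p = 0.188), without mutant replicate 2 (0.12) and with DESeq2 (0.144), and its value ran from 1.01 to 1.80 when libraries were left out. The remaining genes of the run had at most 13 counts each. These genes are close copies, and no source used here states how reads matching several copies were counted, so the division of counts among them is uncertain. On either side of the run, with other genes between, Trim21, Trim68 and Trim3 did not pass.

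**Figure D3:**
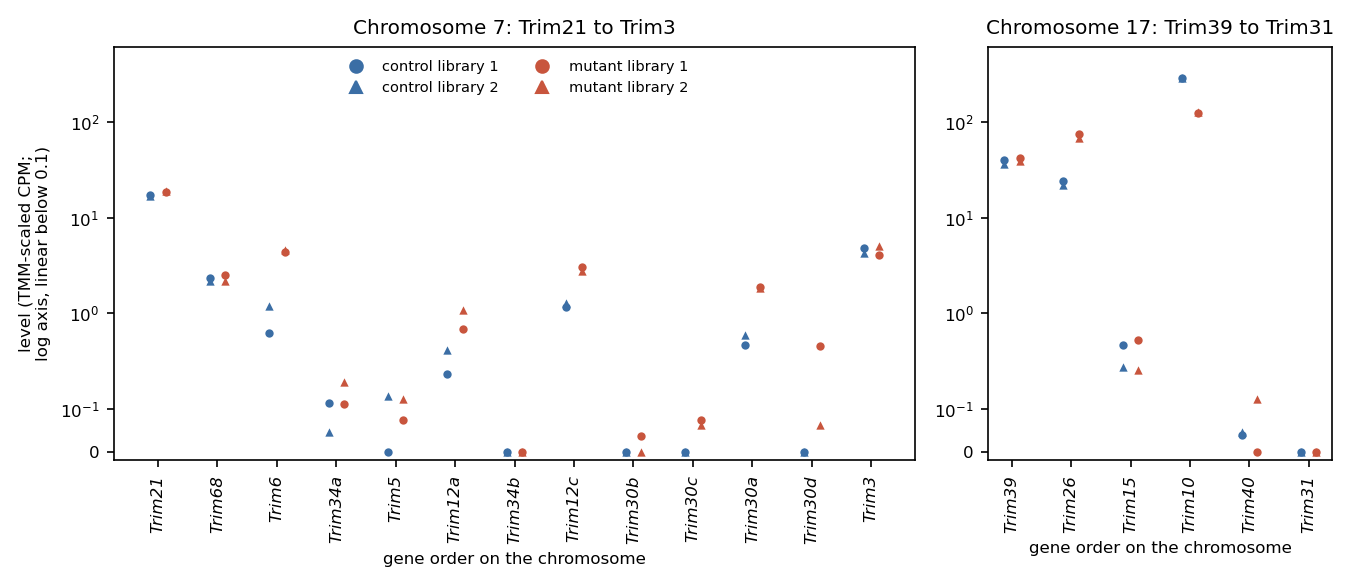
TMM-scaled CPM (y axis, log scale, linear below 0.1) of Trim genes in their order on chromosomes 7 and 17 in GENCODE M21 (x axis, genes of other families left out), with 1 point per library (circles and triangles, libraries 1 and 2; blue, control; red, mutant). Trim6, Trim12a, Trim12c and Trim30a were higher in the mutant libraries, and on chromosome 17 Trim26 was higher and Trim10 lower.

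The windows before the starts of Trim26, Trim30a and Trim12c are shown because they held a core of interferon response elements. This motif, in capitals, is TTTC, any 2 bases and TTTC again, or on the other strand GAAA, any 2 bases and GAAA, and no other member window held it.
Trim26 (chr17:36836896-36837145, plus strand): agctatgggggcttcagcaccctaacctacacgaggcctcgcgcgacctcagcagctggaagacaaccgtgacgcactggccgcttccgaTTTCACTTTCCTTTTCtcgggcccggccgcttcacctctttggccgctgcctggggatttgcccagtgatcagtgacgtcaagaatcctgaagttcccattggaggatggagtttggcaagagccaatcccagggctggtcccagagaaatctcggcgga
Trim30a (chr7:104465194-104465443, minus strand): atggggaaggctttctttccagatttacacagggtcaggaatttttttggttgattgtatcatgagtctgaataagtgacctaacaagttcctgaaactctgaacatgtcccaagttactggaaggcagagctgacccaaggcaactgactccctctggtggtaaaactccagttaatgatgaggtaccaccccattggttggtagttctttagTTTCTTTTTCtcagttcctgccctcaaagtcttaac
Trim12c (chr7:104353350-104353599, minus strand): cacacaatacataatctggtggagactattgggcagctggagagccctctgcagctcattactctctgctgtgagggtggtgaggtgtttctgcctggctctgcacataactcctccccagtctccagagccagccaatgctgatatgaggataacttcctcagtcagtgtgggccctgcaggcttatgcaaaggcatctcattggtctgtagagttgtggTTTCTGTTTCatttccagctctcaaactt
The Trim26 window held 2 overlapping matches, from 160 to 145 bases before the start. Trim30a has a second annotated window without a match. Over all windows 2.98% held this motif, and among member windows 3 of 36, or 8.33%. The motif was chosen with these changes known, so the share is a description. Other motifs were also searched on both strands. CCNCNCCC, a core of Klf sites, was found in 41.7% of member windows and 45.9% of all windows, and AAATCAC, a core of Gfi sites, in 0% and 2.75%.

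Genes of RNA sensing and the interferon response gave mixed values beside these rises. The list held 24 genes, and the rest were too scarce to test. Of 18 tested, 10 rose, 5 fell and 3 did not pass, with a median of 0.19. Over all genes tested, 28.3% rose and 29.2% fell, with a median of 0.01. Tmem173, which encodes the adaptor STING, went from 0.993 ± 0.366 to 45.3 ± 1.68 CPM (5.48 ± 0.14, adjusted p = 7.89e-15). Oas2 had 2 and 0 counts in controls against 14 and 9 in mutants, and Isg15 had 8 and 7 against 22 and 14 (1.42 ± 0.42), a call lost without control replicate 1 (adjusted p = 0.0774) and with DESeq2 (0.137). The falls included Usp18 (-1.01 ± 0.20), which removes Isg15 from proteins, Irf3 (-0.51 ± 0.06) and Ifnar2 (-0.22 ± 0.07, a call lost in 3 of 12 alternatives, without mutant replicate 2 among them at adjusted p = 0.0535). Ddx58, the gene for RIG-I and target of Trim25, rose (0.98 ± 0.20), as did Ifih1 (0.54 ± 0.09), while Mavs fell (-0.17 ± 0.06). The Mavs call was lost in 6 of 12 alternatives, among them leaving out control replicate 1 (adjusted p = 0.166), mutant replicate 1 (0.074) and mutant replicate 2 (0.118). Stat2 (0.08) and Irf9 (0.03), subunits of the interferon-activated transcription factor, did not pass. These values depended on the setting. Leaving out control replicate 1 gave a median of 0.39, leaving out control replicate 2 gave 0.59, and library totals alone gave 0.33. DESeq2 called 6 higher in place of 10. Upper quartile scaling, library totals alone and leaving out mutant replicate 2 each gave 2 lower in place of 5. Macrophage markers took 0.00225% and 0.00231% of control counts, against 0.00279% and 0.00274% of mutant counts. Of these 10 markers, 2 were higher, 2 were lower and 6 did not pass. Neutrophil markers took 0.00501% and 0.00539% against 0.0144% and 0.0148%, with 4 of 6 higher, 1 lower and 1 not passing. The part of macrophage and neutrophil cells in the changes of the Trim genes was not tested.

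The 3 members with B-boxes but no RING finger, Trim44, Trim14 and Trim16, rose, beside 28.3% of all genes tested and 36.3% of those below 10 CPM, where Trim14 and Trim16 lay. Trim44, which carries a zinc finger of the ubiquitin protease type, had 129 and 129.8 CPM in controls and 191 CPM in both mutants (0.56 ± 0.05, adjusted p = 2.42e-08). Trim14, an adaptor of antiviral signalling at mitochondria, had 56 and 42 counts in controls against 344 and 216 in mutants. Its level went from 2.19 and 1.93 CPM to 13 and 13.7 CPM, a 6.5-fold higher mean (2.69 ± 0.15, adjusted p = 1.72e-10). In GENCODE M21, 31.3% of the exon bases of Trim14 are shared with Nans on the opposite strand, so reads of the 2 genes cannot be told apart there. Nans had 378 CPM in controls and 313 CPM in mutants (-0.27 ± 0.04, adjusted p = 6.08e-05), and its part in the Trim14 values was not tested. Trim16, which takes part in the response to damaged lysosomes, had 2 and 6 counts in controls against 42 and 22 in mutants. Its log2 fold change of 3.12 ± 0.46 (adjusted p = 1.87e-05) was the highest among the members, and leaving out control replicate 1 or 2 gave 2.42 or 4.16.

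The transmembrane class was Trim59 and Trim13, and Trim23 and Trim45 were each the only member of their class. These 4 genes belong to 3 classes and are described together only for brevity. Each rose, beside 28.3% of all genes tested. Trim59, which has a transmembrane segment, had 60.3 and 68.6 CPM in controls and 90.6 and 84 CPM in mutants (0.44 ± 0.07, adjusted p = 3.86e-05). Trim13, a ligase of the endoplasmic reticulum, had 5.83 and 5.55 CPM against 7.67 and 8.14 CPM (0.47 ± 0.14), and missed the threshold with DESeq2 (adjusted p = 0.0926). Trim23, which ends in an ARF GTPase domain, had 26 and 25.5 CPM against 36.2 and 36.9 CPM (0.50 ± 0.08, adjusted p = 3.89e-05). Trim45, with a filamin domain, went from 6.45 ± 0.606 to 8.34 ± 0.0109 CPM (0.38 ± 0.14). The Trim45 call was lost without control replicate 1 (adjusted p = 0.186), without mutant replicate 1 (0.109), without mutant replicate 2 (0.0652) and with DESeq2 (0.183).

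Trim8 and Trim56, whose C-terminal part holds no named domain, both fell, beside 29.2% of all genes tested. Trim8, which regulates Socs1 and cytokine signalling, had 103 and 92 CPM in controls and 72.1 and 64.8 CPM in mutants (-0.51 ± 0.07, adjusted p = 1.01e-05). Trim56, a ligase of the DNA sensing pathway, went from 49.6 ± 0.526 to 41.6 ± 1.18 CPM (-0.25 ± 0.07, adjusted p = 0.00656), and lost the call without mutant replicate 1 (0.0663) and with library totals alone (0.182). Trim37, a MATH domain ligase with roles at peroxisomes and centrioles, was the third by mean CPM over the 4 libraries, and was next to Trim10 in controls (284 ± 6.06 against 286 ± 1.3 CPM). It had 280.1 and 289 CPM in controls and 269.5 and 273 CPM in mutants, and did not pass (-0.07 ± 0.04, 95% interval -0.16 to 0.02). No NHL repeat gene passed among the 3 members of that class. Trim2, which the rule left out, belongs to the same class and fell (-2.48 ± 0.14, adjusted p = 2.24e-10). Trim32 had 0.04 ± 0.08 and Trim3 had -0.02 ± 0.17. Trim71, the stem cell protein also called Lin41, had 7 and 10 counts in controls against 20 and 11 in mutants (1.02 ± 0.44, adjusted p = 0.0557). Trim71 passed with upper quartile scaling (0.0411), library totals alone (0.0309) and limma-voom (0.0471).

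The COS box class was represented by Trim46, a microtubule protein of the axon start, and Trim36. Trim46 had 16 and 7 counts in controls against 26 and 18 in mutants (1.10 ± 0.39, adjusted p = 0.0229). That call was lost without control replicate 2 (adjusted p = 0.224), without mutant replicate 1 (0.0659), without mutant replicate 2 (0.0856) and with DESeq2 (0.188). Trim46 shares 239 exon bases with Krtcap2 on the opposite strand, which rose from 74.3 to 96 CPM (0.37 ± 0.07). Trim36 had 2 and 3 counts in controls against 6 and 9 in mutants and was removed by the filter. It lay at the count limit of 20, and the closest rows outside were Trim7 and Trim17 with 17 counts each.

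**Figure D4:**
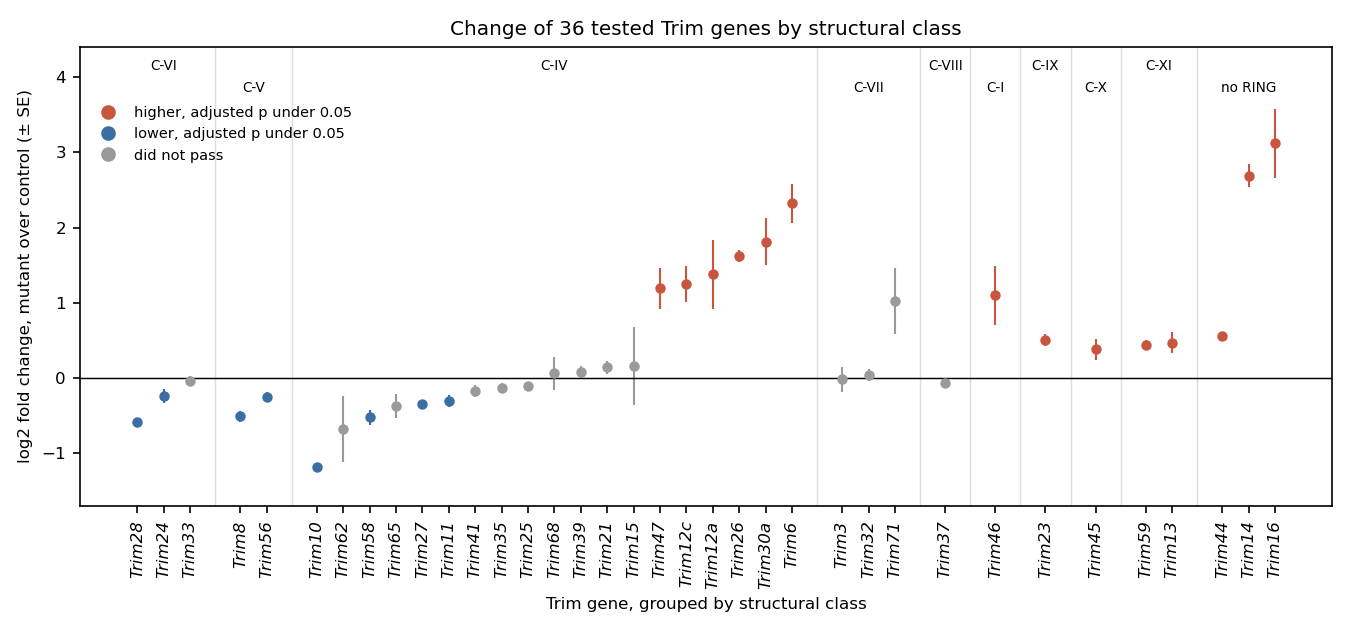
Log2 fold change of mutant over control with its standard error (y axis) for the 36 tested Trim genes, grouped by structural class (x axis; C-I, COS box with fibronectin and SPRY domains; C-IV, PRY-SPRY; C-V, no named domain; C-VI, PHD finger and bromodomain; C-VII, NHL repeats; C-VIII, MATH; C-IX, ARF; C-X, filamin; C-XI, transmembrane). The 3 genes without a RING finger all lie above 0, and the PRY-SPRY class spans -1.19 to 2.32.

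Per kilobase of exon the order of the members in controls began with Trim28 (335 and 318 CPM per kilobase), Trim10 (128 and 127), Trim27 (72.9 and 71.2) and Trim37 (38.8 and 40). In mutants the mean of Trim10, 55.8 CPM per kilobase, was close to that of Trim27, 56.8. Trim44 moved from 22.9 to 33.9 CPM per kilobase. Trim56, Trim24 and Trim39 had means of 5.34, 5.33 and 5.25 in controls and did not differ beyond the spread of Trim24 (5.79 and 4.86). Lengths are those of GENCODE M21 and not of the gene models behind the counts.

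A further list held Trim2 and family genes with other names, and the 3 that could be tested fell, beside 29.2% of all genes tested. Among those 3, Pml and Mid1 are the genes with other names. Pml, the organiser of PML nuclear bodies, had 5740 and 4695 counts in controls against 5277 and 2962 in mutants (-0.18 ± 0.05, adjusted p = 0.00427), and Mid1, a microtubule-bound ligase, went from 17.2 ± 0.898 to 12 ± 0.352 CPM (-0.53 ± 0.10). Trim2, left out of the members by the rule, had 392 and 391 counts in controls against 76 and 49 in mutants (-2.48 ± 0.14). Mid2, Mefv, Triml1 and Triml2 were too scarce to test. With library totals alone, with upper quartile scaling and without mutant replicate 2, 2 of the 3 fell, and Pml lost its call (adjusted p = 0.462, 0.0775 and 0.0824). Of 11 genes for the activating enzyme and the conjugating enzymes that work with Trim ligases, 2 rose, 2 fell and 7 did not pass. Over all genes tested, 57.5% were called, 28.3% higher and 29.2% lower. Ube2w (0.40 ± 0.12), which attaches the first ubiquitin, and Ube2n (0.23 ± 0.08), which builds chains, rose. Neither was called with DESeq2 (adjusted p = 0.0953 and 0.124) or without mutant replicate 1 (0.266 and 0.197), so that no gene of the list rose there, and Ube2n also lost its call without control replicate 2 (0.238) and with no filter beyond 1 count (0.0799). The activating enzyme gene Uba1 fell from 1339 ± 39.4 to 1139 ± 6.54 CPM (-0.23 ± 0.04), and Ube2d3 fell (-0.20 ± 0.08). The Ube2d3 call was lost in 7 of 12 alternatives, among them leaving out control replicate 1 (adjusted p = 0.327) and mutant replicate 2 (0.307). The median of this list was -0.09, and 0.05 with library totals alone.

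**Figure D5:**
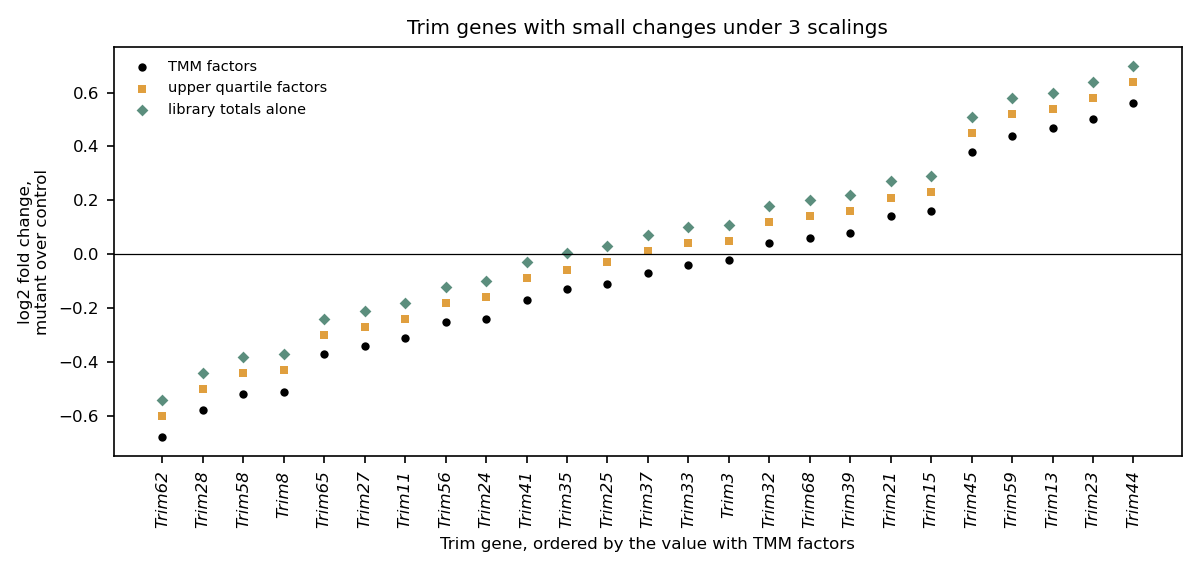
Log2 fold change of mutant over control (y axis) for the 25 Trim genes within 0.7 of 0 (x axis, ordered by the value with TMM factors), with TMM factors (circles), upper quartile factors (squares) and library totals alone (diamonds). Each gene shifts upward with the other scalings, and Trim25, Trim35, Trim37, Trim33 and Trim3 cross 0.

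Trim25, Trim35, Trim37, Trim33 and Trim3, none of them called, changed sign with the scaling. Trim58, Trim28 and Trim8 stayed below 0 and Trim44, Trim23 and Trim59 above 0 under each scaling shown in the plot of small changes. In the authors' deposited table, which held 35 of the members, 17 were higher, 5 were lower and 13 did not pass at an adjusted p of 0.05. Over the 13234 genes of the authors' deposited table the median was 0.15, and 37.7% of its genes were higher and 17.7% lower. No member had opposite calls in the authors' deposited table and here, and 6 differed in whether they passed: Trim11, Trim24 and Trim56 passed here alone, and Trim21, Trim39 and Trim71 there alone. For Trim10 the authors' deposited table gave -1.05, and for Trim58 it gave -0.38.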

How the data were processed

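The 4 mRNA sequencing libraries were grouped by title. The tools FastQC, Bowtie and edgeR and the build mm9 are named per the submitters' processing notes; versions, gene models, strand use and the handling of reads with several matches are not given in the sources used here. The authors deposited whole-number counts per gene, taken as raw because library totals differ, and, per the file headers, a table of their own log2 fold changes with p-values. Count columns named WT1 and WT2 were taken as control1 and control2. No file gives coordinates; gene order, exon overlap and exon length came from GENCODE M21 on GRCm38, matched by Ensembl ID.

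Of 35939 rows, 12 with no value were left out. Counts were fitted with edgeR 4.0.16 (filterByExpr, TMM, estimateDisp, glmQLFit robust, glmQLFTest; limma 3.58.1, R 4.3.3), mutant against control, two-sided, over all 13140 genes kept. The common dispersion of 0.00232 equals a biological coefficient of variation of 4.81%, so small changes pass. Precision is set by the 2 pools per group and, for scarce members, by counts. Mean chi-square per gene between replicates was 6.06 (controls) and 3.76 (mutants), so no library was a duplicate. Alternatives were RLE, upper quartile and no factors, 2 other filters, DESeq2 1.42.0, limma-voom, a block for the replicate number, and leaving out 1 library at a time, where the lone library of a group is assumed to vary as the other group does. The script was tested on simulated data. The members, lists, classes and promoter motifs were chosen with earlier results of these data known. Any member may be named; Trim10, Trim58, the PHD-bromodomain class, the 5 largest rises and falls and the 3 most abundant get full values, and of each list up to 3 risers and 3 fallers.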

Additional observations from a re-analysis of the deposited data

How the results depend on the processing

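Of the 22 Trim genes called, 15 had the same call under all alternatives that tested them, 7 lost it in at least 1, and none changed direction. Of 14 not called, 7 passed somewhere and 8 changed sign, without passing there. Those sign changes were 0.04, 0.10 and, without mutant replicate 1, 0.02 for Trim33; 0.01 and 0.07 for Trim37; and 0.05 and 0.11 for Trim3, each first with upper quartile scaling and then with library totals alone. With library totals alone Trim25 had 0.03 and Trim35 had 0.0047. When libraries were left out, Trim3 ran from -0.16 to 0.16 (0.05 without control replicate 1), Trim15 from -0.56 to 0.60 (-0.17 without control replicate 2), Trim33 from -0.09 to 0.02, Trim32 to -0.01 and Trim68 to -0.07. The cause was not tested. Library totals alone gave 5 Trim genes and 2553 of all genes lower, where TMM gave 8 and 3835. The median of all genes was 0.01 with TMM, 0.09 with upper quartile scaling, 0.15 with library totals alone, 0.07 with no filter beyond 1 count (where more genes were tested), and 0.01 to 0.02 with a library left out. The median of the Trim genes was 0.07 with TMM, 0.15 with upper quartile scaling, 0.21 with library totals alone, and 0.01 to 0.14 with a library left out. Leaving out a library gave 17 to 22 Trim genes called, and DESeq2 gave 17. With no filter 26 Trim genes were called.

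Same-numbered libraries deviated together from their group means (correlation 0.468 over 8340 genes), a hint from the data since no label says that the numbers pair the libraries. With the replicate number as a block, 27 Trim genes were called, 15 higher and 12 lower, and 8402 genes in all. The added calls were of Trim25, Trim35, Trim41, Trim65 and Trim71. Depth limits the 7 members with under 100 counts in all. Trim36, among them, was not tested, and the intervals of the others are wide.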

Other observations

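Of the 29 Trim rows under the count limit, 13 had no count in any library. Among the other 16, singled out after their values were seen, Trim38 had 0 and 0 counts in controls against 8 and 2 in mutants, and Trim30d had 0 and 0 against 12 and 1. A count of 0 allows up to 3 counts in a library at this depth. Neither gene was tested.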
